A study of Oreochromis niloticus with 12 samples.

Results

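The genes described here are named after enzymes that attach ubiquitin to proteins or take it off again, or after F-box subunits of ubiquitin ligases. They were measured in fast muscle of domesticated and wild Nile tilapia (Oreochromis niloticus). They were chosen by name, as all genes of the count tables whose NCBI symbol begins with ube2, usp, otud or fbxo, with fbxo32 left out. The rule found 118 of 42609 genes, made up of 33 E2 enzymes (ube2), 30 F-box genes (fbxo) and 55 genes named after deubiquitinases (48 usp and 7 otud). Genes known by a LOC number alone, 25009 of the 42609, cannot be found by such a rule, so paralogs without a symbol are not among the 118. The tissue came from 6 domesticated females, of the first generation under domestication, and 6 wild females, all of them 5 months old. A domesticated and a wild fish of the same number (53, 63, 66, 68, 70 or 72) are genetically related, so that D53 and W53 form a pair. Total RNA was depleted of ribosomal RNA, made into strand-directional libraries and sequenced on a single lane. The libraries are of a piece of tissue, in which fewer cells of a type and less RNA per cell cannot be told apart.

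Ubiquitin is a small protein that cells link to other proteins as a signal. An E1 enzyme activates it, an E2 enzyme carries it on a cysteine, and an E3 ligase brings the loaded E2 to the protein to be marked. F-box proteins are the exchangeable part of one kind of E3, the SCF ligase, in which Skp1 and cullin 1 hold the F-box protein that recognises the target. Deubiquitinases of the USP and OTU families cut ubiquitin off again, and so spare a protein from the proteasome or end a signal. In muscle this system removes contractile proteins during fasting, disuse and stress, and it also controls the quality of newly made proteins. A few of the 118 genes match by name and act otherwise. The product of usp6nl is a regulator of Rab GTPases, that of uspl1 cuts the ubiquitin relative SUMO, and usp39 is a splicing factor without protease activity. Ube2v2 belongs to the E2 variants that lack the catalytic cysteine, and ube2m carries the ubiquitin relative NEDD8.

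Only some of the 118 genes could be measured. The deposited tables count reads per annotated transcript, and the counts were summed per gene. A gene was tested when it had at least 10 counts, on the scale of the median library, in 6 or more libraries, and 54 of the 118 passed, namely 18 of 33 E2 genes, 12 of 30 F-box genes and 24 of 55 deubiquitinase genes. Which genes passed followed the number of transcripts that the tables list for them. Of the 54 genes with 1 listed transcript 49 were tested, and of the 64 with several transcripts 5. The median of the mean count per library was 102 for genes with 1 transcript and 0.667 for genes with several. No count was found in any library for 20 genes, among them ube2c, ube2r2, fbxo3, fbxo11a, usp5, usp28 and otud3, each with at least 2 listed transcripts. Finding no count in a library bounds the level there at 0.336 to 0.665 CPM (3 counts, which covers counting error alone). The sources used here do not say how reads that match several transcripts of a gene were treated, so these 20 genes are listed at 0 and are not shown to be silent. None of the 54 tested genes reached the count threshold in libraries of 1 group alone (0), but fbxo2, fbxo48, usp2a and usp45 reached it in fewer than 3 libraries of one of the groups.

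**Figure D1:**
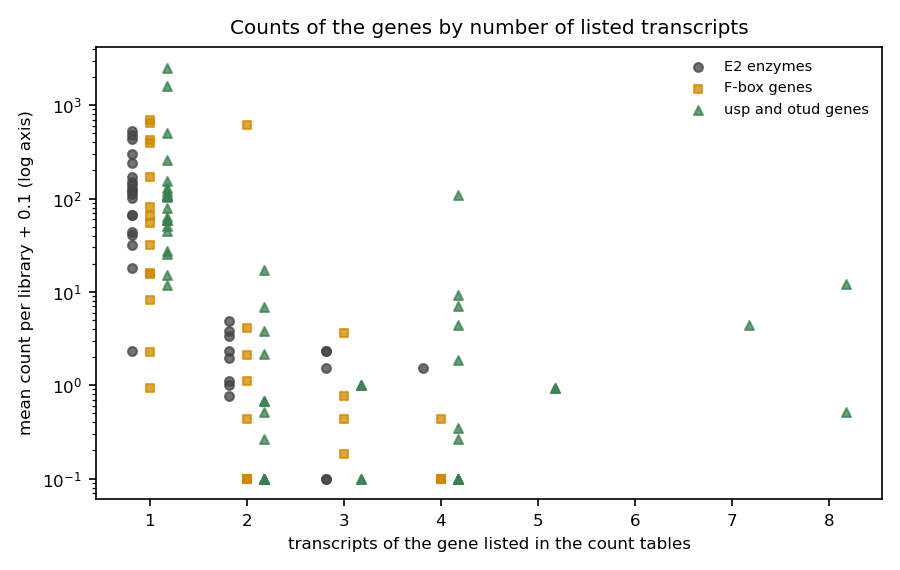
Mean count per library (log axis, 0.1 added) of the 118 genes against the number of transcripts listed per gene, with circles for E2, squares for F-box and triangles for usp and otud genes. Genes with 1 transcript have a median of 102 counts and genes with several a median of 0.667.

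The libraries held 4312367 to 8478988 gene counts in domesticated fish and 3395622 to 8472454 in wild fish. Levels are CPM, counts per 1000000 of the tested genes' total after TMM scaling, a factor per library that holds most genes level when some very abundant ones vary. Fold changes are domesticated over wild on the log2 scale with a pseudocount of 0.5. CPM is not corrected for transcript length and does not rank genes by expression. All 13 fast muscle markers found had counts, with a summed level of 174281 to 375650 CPM in domesticated and 66352 to 373861 CPM in wild fish. Of 11 tested, 0 passed (2 at an unadjusted limma p under 0.05), but each had a positive log2 fold change, with a median of 0.71. Some markers of other cells in the tissue were higher in domesticated fish, beside 6.69% of all tested genes. Fat cell markers summed to 139 to 362 CPM in domesticated and 56.0 to 137 CPM in wild fish, with both tested genes higher, and none of the 7 found was at 0. Matrix and fibroblast markers summed to 5006 to 26228 CPM in domesticated and 426 to 8695 CPM in wild fish (2 of 7 tested genes higher, col1a1a and postna at 0), and red blood cell markers to 379 to 1295 against 185 to 803 CPM (3 of 4 higher, slc4a1a, slc4a1b and hemgn at 0). The red blood cell sum mainly follows ank1a, with a mean of 710 CPM in domesticated and 275 CPM in wild fish. Means were 124 and 141 CPM for sptb, 15.5 and 4.05 CPM for rhag, and 11.8 and 6.11 CPM for alas2. Slow muscle markers summed to 96.6 to 721 CPM in domesticated and 40.3 to 207 CPM in wild fish (2 of 5 higher, tnnt1, tnnt2a and tnnt2b at 0). As for the 20 genes above, markers listed at 0 are not shown to be silent. Members of these lists also had negative log2 fold changes that did not pass, among slow muscle markers atp2a2b (-1.17) and myl2b (-0.24) and among red blood cell markers sptb (-0.23). Of the leukocyte and endothelial markers, 0 of 6 and 0 of 5 passed (1 and 0 at an unadjusted limma p under 0.05). The part of these cells in the values below was not tested. W63 and D53 were the libraries most often nearer to the other group. W63 was nearer to the domesticated median than to that of the other wild libraries for 32 of the 54 tested genes, beside 50.4% of all 8425. D53 was nearer to the wild median for 21, beside 44.9% of all genes. The other 10 libraries had 12 to 18 such genes, beside 30.3% to 41.7% of all genes.

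Among E2 genes 3 of 18 were higher and 0 were lower in domesticated fish, among deubiquitinase genes 1 of 24 was higher and 5 were lower, and among F-box genes 0 of 12 passed in either direction (limma, Benjamini-Hochberg adjusted p under 0.05 over 8425 genes). Over all tested genes 6.69% were higher and 6.50% were lower, beside 16.7% of E2 genes higher and 20.8% of deubiquitinase genes lower, shares that rest on 3 and 5 genes. Over the 3 classes together, 4 and 5 of 54 genes were called, which is near that background, so the number of calls does not set these genes apart. The median log2 fold change was 0.35 for E2 genes, 0.04 for F-box genes and -0.31 for deubiquitinase genes, beside -0.02 over all tested genes. A positive value was found for 13 of 18 E2 genes, 6 of 12 F-box genes and 6 of 24 deubiquitinase genes, against 48.9% of all tested genes. Scaling by total counts moved the median of all genes to -0.42, and with it those of E2 genes to -0.060, of F-box genes to -0.37 and of deubiquitinase genes to -0.72. With that scaling 1 gene of the 54 was higher (ube2d4) and 3 were lower (otud7a, ube2h, usp36), and of all genes 87 were higher and 593 lower, against 564 and 548 with TMM scaling. Beside the 0 E2 genes that were lower, 1 had an unadjusted p under 0.05 and a fit with voom weights called 0. For the 0 F-box genes 4 higher and 3 lower had an unadjusted p under 0.05. Fbxo2 and fbxo48, among these, reached the count threshold in fewer than 3 libraries of 1 group. Voom weights called 0 F-box genes as well, but a fit with the pairs as a replicate block called 1 lower (fbxo30a). With single libraries left out, 0 to 2 F-box genes were higher and 0 to 1 lower, so the 0 depends on the fit. Over all genes 29.9% had an unadjusted p under 0.05.

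**Figure D2:**
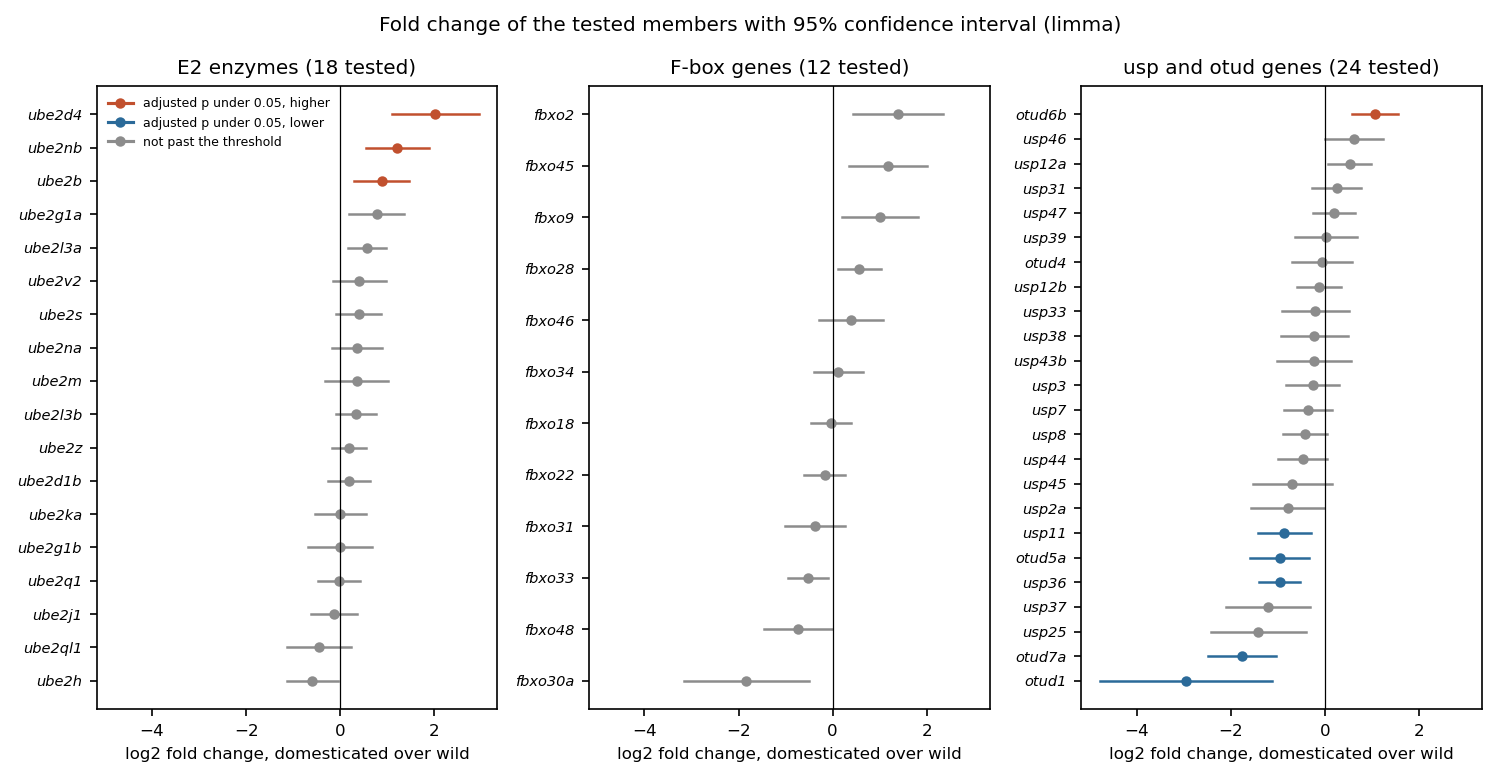
Log2 fold change, domesticated over wild, of the 54 tested genes with the 95% confidence interval of the limma fit, in panels for E2, F-box and usp and otud genes. Red points are the 4 genes that were higher and blue points the 5 that were lower at an adjusted p under 0.05, and E2 genes lie mostly right of 0 and usp and otud genes mostly left of it.

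The E2 genes that rose were ube2d4, ube2nb and ube2b. Ube2d4 belongs to the UBE2D family, E2 enzymes that work with many different E3 ligases. Its level was 25.5 to 95.6 CPM in domesticated fish (median 68.8), against 8.43 to 62.1 CPM in wild fish (median 12.2). All but D53 in the domesticated group were above every wild library, and W63 lay far above the other wild libraries, whose highest value was 16.1 CPM. The log2 fold change was 2.02 ± 0.44 (SE), a 4.06-fold difference, with an adjusted p of 0.0106 (limma, 6 of 6 pairs higher). The adjusted p was 0.00182 to 0.0292 over all alternatives.

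Ube2nb is one of a pair of tilapia genes for UBE2N (Ubc13), the E2 that builds signalling chains together with an E2 variant. It reached 78.0 to 166 CPM in domesticated (median 104) and 28.7 to 116 CPM in wild fish (median 41.5), and among wild libraries W63 alone was within the domesticated range. Its log2 fold change was 1.21 ± 0.31 (limma, adjusted p = 0.0214, higher in 5 of 6 pairs). Without D70 the adjusted p was 0.0532 and the E2 genes called fell to 1, ube2d4, and with total counts it was 0.117. A partner of this enzyme, ube2v2, was at 55.2 to 105 CPM in domesticated and 38.3 to 95.4 CPM in wild fish (log2 fold change 0.40 ± 0.26, limma, adjusted p = 0.324). The groups overlap, with W63, W68 and W70 below every domesticated library and D53 and D68 above every wild one. Ube2v1, a further gene of that name, had 8 counts in all libraries together and was not tested. It has 2 listed transcripts, and of the 14 E2 genes with several listed transcripts 0 were tested, so a low level of ube2v1 is not shown.

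Ube2b, a RAD6 homolog that marks histone H2B and acts in DNA damage tolerance, was at 5.19 to 10.01 CPM in domesticated (median 5.91) and 2.64 to 6.43 CPM in wild fish (median 3.24). The groups overlap through W63. A log2 fold change of 0.88 ± 0.28 lay at the threshold (limma, adjusted p = 0.0478, 5 of 6 pairs higher). The pairing as a replicate block gave an adjusted p of 0.0854. With single libraries left out it was 0.0176 to 0.110, and under 0.05 without D63 or W63 only.

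The other E2 genes did not pass the adjusted test. Ube2l3a, a paralog of UBE2L3, which serves HECT and RBR ligases such as parkin, was at 25.6 to 32.9 CPM in domesticated and 13.2 to 23.7 CPM in wild fish. It was the only E2 gene whose groups did not overlap, as was the case for 3 of the 54 genes and for 5.01% of all tested genes. Its log2 fold change was 0.57 ± 0.19 (limma, adjusted p = 0.0617), and it passed with upper quartile scaling. Ube2g1a, an E2 linked to degradation of proteins from the endoplasmic reticulum, had a log2 fold change of 0.77 ± 0.27 (limma, adjusted p = 0.0710) and passed without W63 (adjusted p = 0.0147). Ube2h, the E2 of the CTLH ligase, lay in the opposite direction, with 49.0 to 90.5 CPM in domesticated and 59.4 to 141 CPM in wild fish (log2 fold change -0.59 ± 0.25, limma, adjusted p = 0.131). It was the only E2 gene with a negative value at an unadjusted p under 0.05. Ube2m, which carries the ubiquitin relative NEDD8 to cullins, had a log2 fold change of 0.35 ± 0.32. Ube2z, which is loaded by the E1 UBA6, varied little, with 17.4 to 20.7 CPM in domesticated and 14.2 to 19.8 CPM in wild fish. Its 95% confidence interval of -0.17 to 0.55 is narrow. Ube2ka, an E2 of degradative chains, had an interval of -0.54 to 0.54 around 0.00.

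**Figure D3:**
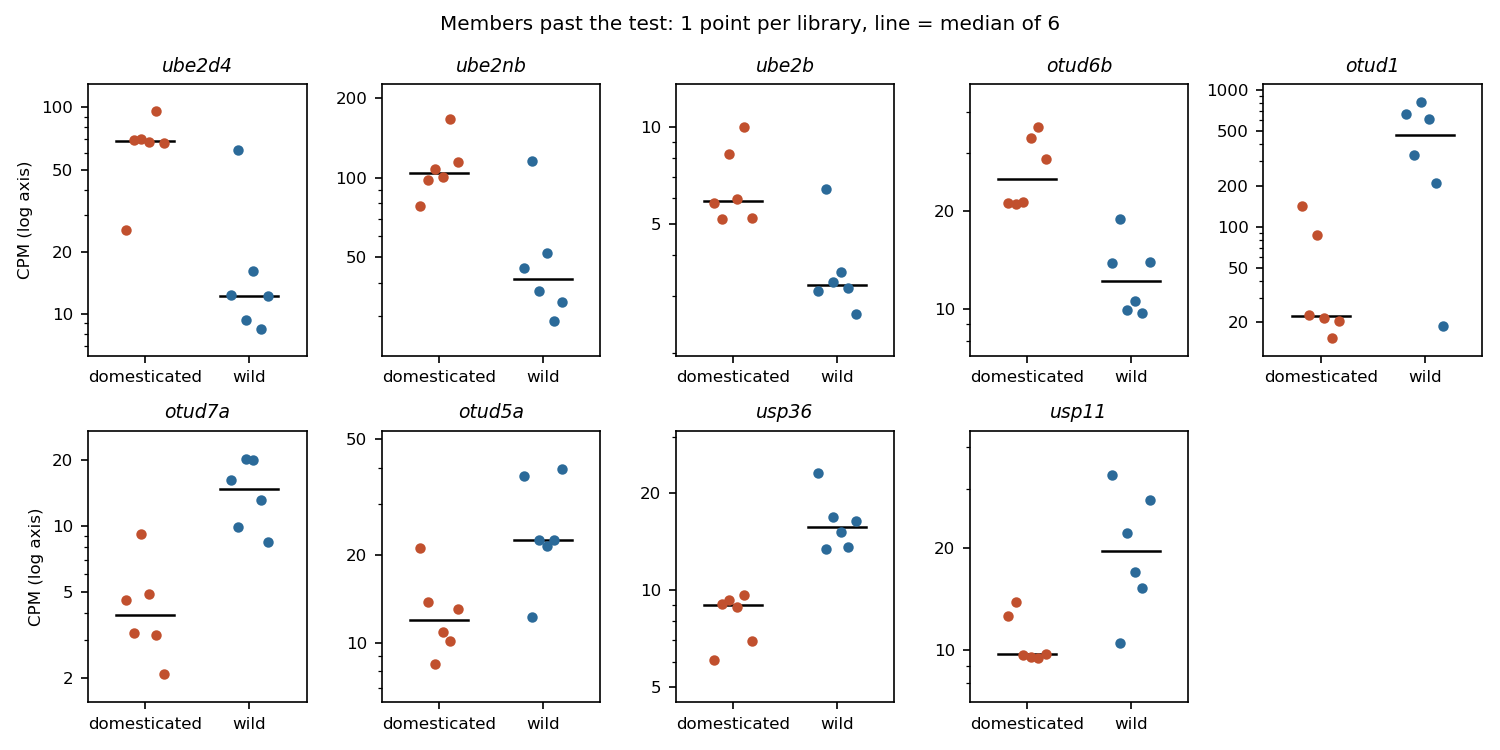
CPM on a log axis of the 9 genes past the test, 1 point per library, domesticated at left and wild at right, with the median of 6 as a line. Groups are apart for otud6b and usp36, and the wild library far above the others in ube2d4, at 62.1 CPM, is W63.

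Paralogs that arose in fish allow a comparison within each library that no scaling can move. Of the tested genes 4 pairs carry the letters a and b, and the log2 ratio of a over b was compared between groups by a two-sided exact permutation test, a comparison added after the single values were seen. The ratio of ube2na to ube2nb was lower in domesticated fish by 0.86 on the log2 scale, with a mean of -3.20 ± 0.62 (SD) in 6 domesticated and of -2.35 ± 0.51 in 6 wild libraries (exact p = 0.0281). The ratio of usp12a to usp12b was higher by 0.65, with -1.75 ± 0.54 (SD) in domesticated libraries and -2.40 ± 0.41 in wild ones (exact p = 0.0411). After adjustment over the 4 pairs neither passed (0.0823 for both, exact permutation). The exact test within pairs, the replicate block, gave 0.0938 for both before adjustment and 0.188 after it. With single libraries left out the unadjusted exact p reached 0.0628 for ube2na over ube2nb and 0.0866 for usp12a over usp12b. The adjusted exact p was under 0.05 for both without D53 (0.0476 for each) and for the first without W63 (0.0173), and above it without any of the others. For ube2g1a over ube2g1b the difference was 0.78 (exact p = 0.145) and for ube2l3a over ube2l3b 0.23 (exact p = 0.249). These paralogs were thus not shown to differ in their response. Reads that fit both copies of a pair may be missing from either, since the tables leave out reads with several alignments.

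**Figure D4:**
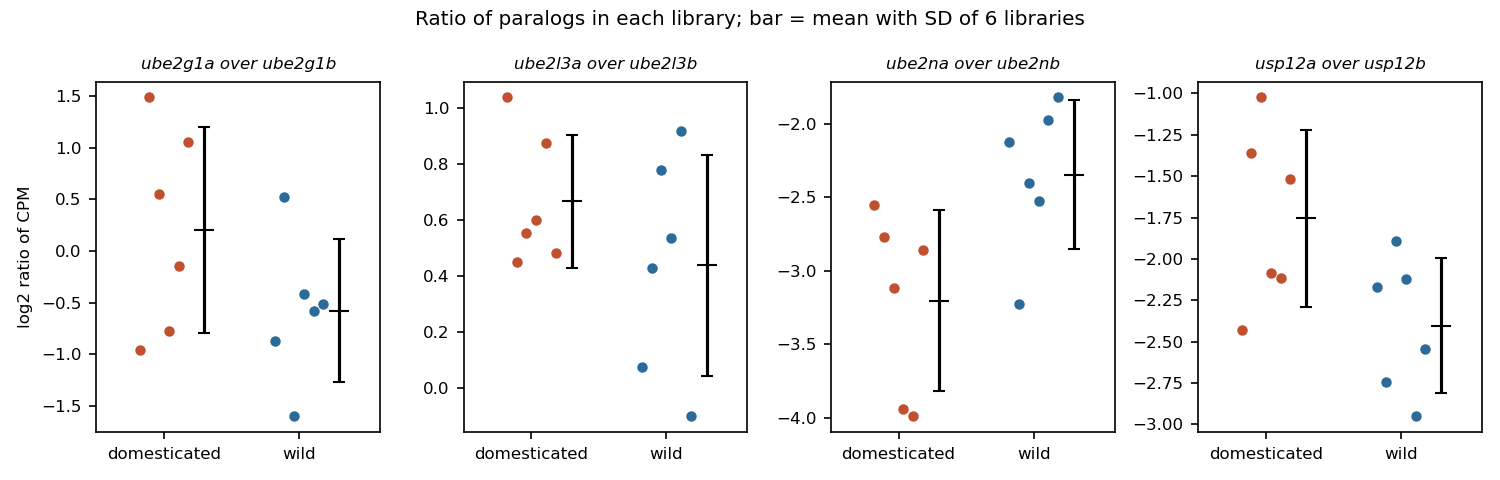
Log2 ratio of the CPM of paralogs in each library, domesticated at left and wild at right, with the mean and SD of 6 libraries as a bar. For ube2na over ube2nb the domesticated mean lies at -3.20 and the wild mean at -2.35, and the groups overlap in all 4 panels.

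No F-box gene passed the adjusted test, and the tested genes were spread to both sides. Fbxo30a is a paralog of FBXO30 (MUSA1), an F-box gene induced in atrophying mouse muscle. It had 14.1 to 236 CPM in domesticated fish (median 20.9) and 35.1 to 211 CPM in wild fish (median 146). Of the domesticated libraries 5 were at or below 37.7 CPM, and D53 was above every wild library. The log2 fold change was -1.84 ± 0.62 with an adjusted limma p of 0.0652 (lower in 5 of 6 pairs). With the pairing as a replicate block the adjusted p was 0.0167, without D53 it was 0.00399, and fbxo30a also passed without W63.

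Fbxo33, whose human counterpart targets the RNA-binding protein YB-1, was lower in all 6 pairs at 40.3 to 57.1 CPM in domesticated and 56.5 to 92.7 CPM in wild fish, a small overlap (log2 fold change -0.53 ± 0.20, limma, adjusted p = 0.0899). Fbxo48 was also lower in all 6 pairs (-0.74 ± 0.34, limma, adjusted p = 0.155), at 1.11 to 2.78 CPM in domesticated and 1.77 to 4.37 CPM in wild fish. It reached the count threshold in 2 domesticated and 6 wild libraries, so it was tested mainly through the group where it is higher. Fbxo28 was higher in all 6 pairs (0.57 ± 0.22, limma, adjusted p = 0.0934). Fbxo2, which recognises sugar chains of misfolded glycoproteins, was at 1.77 to 5.21 CPM in domesticated and 0.556 to 3.87 CPM in wild fish (log2 fold change 1.39 ± 0.45, limma, adjusted p = 0.0532). It passed without D68 or W70. Fbxo2 reached the count threshold in 6 domesticated libraries but in only 1 wild one, so it was tested mainly through the group where it is higher. Fbxo45, which acts with the ligase PAM in neurons, had a log2 fold change of 1.18 ± 0.39 (limma, adjusted p = 0.0579) and passed without D63, W53 or W63. Fbxo9, linked in human cells to turnover of mTOR pathway regulators, was at 44.6 to 149 CPM in domesticated and 25.2 to 99.9 CPM in wild fish (1.01 ± 0.38, limma, adjusted p = 0.0862) and passed without W63.

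Fbxo46 and fbxo31, which with fbxo30a had the highest mean CPM of the F-box genes, were not called. Fbxo46 had 57.5 to 182 CPM in domesticated and 55.01 to 158 CPM in wild fish (log2 fold change 0.39 ± 0.32, limma, adjusted p = 0.439). Fbxo31, which targets cyclin D1 after DNA damage, had 42.6 to 158 CPM in domesticated and 60.4 to 130 CPM in wild fish (-0.38 ± 0.30, limma, adjusted p = 0.417). Both overlap over nearly their whole range. Fbxo31 has 2 listed transcripts, and all of its 7363 counts lay on 1 of them. Fbxo18, a DNA helicase with an F-box, was at 8.34 to 12.3 CPM in domesticated and 7.91 to 12.4 CPM in wild fish (-0.04 ± 0.20).

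Of the 7 otud genes 5 were tested, 3 fell and 1 rose in domesticated fish, all of them among the deubiquitinase genes counted above. Of all tested genes 6.50% were lower and 6.69% higher, and the otud shares rest on 5 genes. Otud7a, related to the deubiquitinase Cezanne, was at 2.09 to 9.16 CPM in domesticated (median 3.92) and 8.47 to 20.2 CPM in wild fish (median 14.7). The groups met only where D66 stood above W72, and the gene was lower in all 6 pairs. The log2 fold change was -1.76 ± 0.34, a 3.38-fold difference, with an adjusted limma p of 0.00656 that remained between 0.00362 and 0.0213 over all alternatives. Otud6b, whose human counterpart is linked to protein synthesis and proteasome assembly, went the other way. It was at 21.0 to 36.0 CPM in domesticated (median 25.0) and 9.72 to 18.9 CPM in wild fish (median 12.2), with no overlap and all 6 pairs higher (log2 fold change 1.07 ± 0.23, limma, adjusted p = 0.0105). With total counts in place of TMM its adjusted p was 0.234.

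Otud1, a deubiquitinase of signalling proteins such as those of the TGF-beta and interferon pathways, showed the widest spread. Domesticated fish had 15.4 to 143 CPM (median 22.1) and wild fish 18.9 to 810 CPM (median 470). Among domesticated libraries 4 were at or below 22.7 CPM while D66 reached 87.1 and D53 143 CPM, and among wild libraries W72 alone was as low as the domesticated ones. The log2 fold change was -2.96 ± 0.85, a 7.79-fold difference (limma, adjusted p = 0.0359, lower in 5 of 6 pairs). It passed in 3 of the 12 fits with 1 library left out, those without D53, D66 or W72, and the adjusted p of these fits was 0.00194 to 0.0869.

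Otud5a (DUBA), a regulator of the interferon response in mammals, was at 8.44 to 21.2 CPM in domesticated (median 11.97) and 12.3 to 39.6 CPM in wild fish (median 22.6). The overlap came from W63 alone, since all other wild libraries were above the highest domesticated one. Its log2 fold change was -0.96 ± 0.30 (limma, adjusted p = 0.0431, lower in 5 of 6 pairs), with adjusted p of 0.0114 to 0.0993 when single libraries were left out and a pass without D53 or W63 only. Otud4 did not differ beyond its spread (-0.07 ± 0.30), and its 95% confidence interval was -0.71 to 0.57.

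Of 19 tested usp genes 2 fell, and 0 rose (2 at an unadjusted p under 0.05, and 0 with voom weights). The 2 that fell are 10.5% of the usp genes, beside 6.50% of all tested genes. Usp36 is a deubiquitinase of the nucleolus that acts in ribosome production. It was at 6.05 to 9.64 CPM in domesticated (median 8.98) and 13.4 to 23.1 CPM in wild fish (median 15.8). The groups did not overlap and all 6 pairs were lower. Usp36 had a log2 fold change of -0.97 ± 0.21, a 1.95-fold difference (limma, adjusted p = 0.0107), and it passed in all 12 fits with 1 library left out, but had an adjusted p of 0.173 when genes with low counts were tested as well. Usp11, a nuclear deubiquitinase linked to DNA repair, was at 9.45 to 13.8 CPM in domesticated (median 9.73) and 10.5 to 33.0 CPM in wild fish (median 19.6). Among wild libraries W63 alone lay within the domesticated range. On the log2 scale the fold change was -0.86 ± 0.27 (limma, adjusted p = 0.0436, lower in 5 of 6 pairs), and the replicate block gave an adjusted p of 0.0606. With single libraries left out it was 0.0117 to 0.103, and under 0.05 without D53, D63 or W63. Without D68, D70, D72, W53, W66, W68 or W70 the deubiquitinase genes called lower fell to 2, otud7a and usp36, and without D66 or W72 to 3, these with otud1.

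Usp25 has a muscle-specific isoform in humans that binds sarcomere proteins. It had 100.3 to 672 CPM in domesticated fish (median 134) and 160 to 833 CPM in wild fish (median 445). It was lower in all 6 pairs, yet the groups overlap, because D53 stood at 672 CPM while the other domesticated libraries reached 155 CPM at most, and W63 at 160 CPM was the lowest wild library. The log2 fold change was -1.41 ± 0.48 (limma, adjusted p = 0.0622), the replicate block gave 0.0214, and usp25 passed without D53 (0.00742) or W63. Library D53 was thus the highest domesticated library for usp25, fbxo30a and otud1 alike, and its pair mate W53 was the highest wild library for usp25 and fbxo30a and the second highest for otud1.

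**Figure D5:**
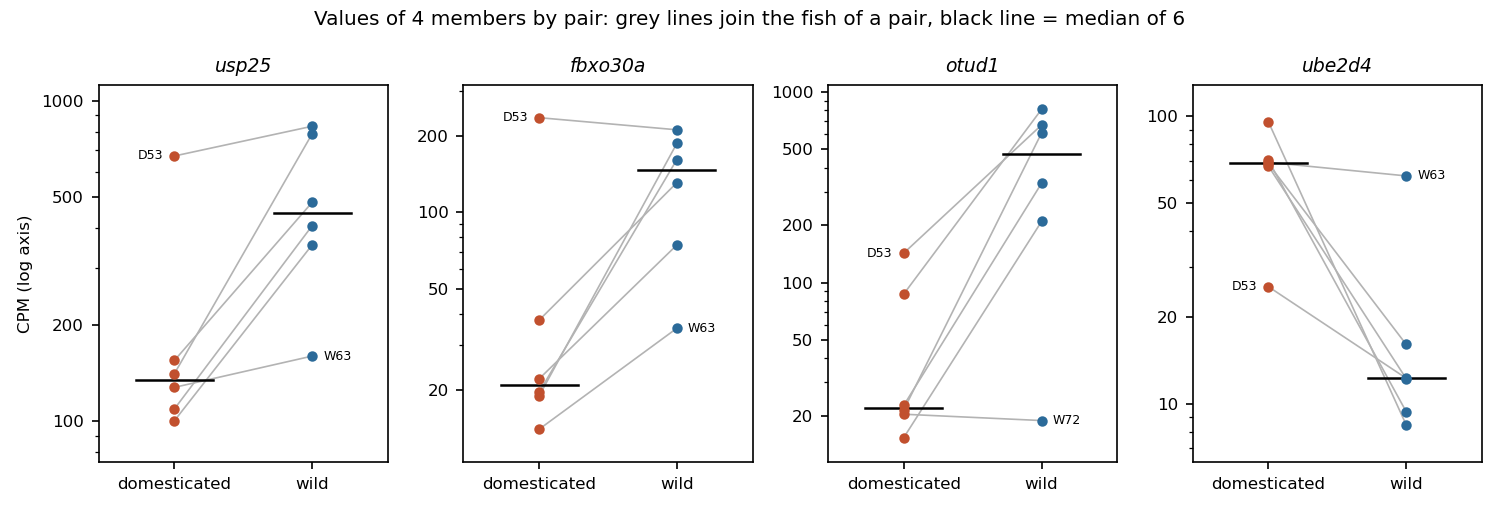
CPM on a log axis of usp25, fbxo30a, otud1 and ube2d4, with domesticated fish at left, wild fish at right, a grey line between the fish of a pair and a black line at the median of 6. D53 lies at 672 CPM for usp25 and 236 CPM for fbxo30a, far above the other domesticated libraries.

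In wild fish, most of the summed level of the 24 deubiquitinase genes came from usp25 and otud1. It was 432 to 1167 CPM in domesticated fish and 805 to 1922 CPM in wild fish, of which usp25 and otud1 made up 26.8% to 69.8% in domesticated and 61.0% to 79.3% in wild fish. Without these genes the sum was 289 to 352 CPM in domesticated and 314 to 454 CPM in wild fish. The 18 E2 genes summed to 531 to 678 CPM in domesticated and 302 to 584 CPM in wild fish, and the 12 F-box genes to 375 to 660 CPM in domesticated and 431 to 614 CPM in wild fish.

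The remaining usp genes did not pass the adjusted test. Usp12a and usp46, which in mammals share the activator WDR48, were both higher in all 6 pairs, with log2 fold changes of 0.52 ± 0.21 and 0.62 ± 0.29 (limma, adjusted p = 0.118 and 0.164). Usp12b was at -0.13 ± 0.22, and the ratio of usp12a to usp12b did not pass after adjustment. Usp37, a regulator of cyclin A, was at 2.44 to 10.4 CPM in domesticated and 3.49 to 21.9 CPM in wild fish (log2 fold change -1.21 ± 0.42, limma, adjusted p = 0.0684) and passed without D63 or W63. Usp44, of the spindle checkpoint, was lower in all 6 pairs (-0.48 ± 0.24, limma, adjusted p = 0.206). Usp8, which acts on endosomal cargo, was at -0.42 ± 0.22, and usp7, the deubiquitinase of MDM2, at -0.36 ± 0.24, each lower in 5 of 6 pairs. Usp7 has several listed transcripts, and nearly all of its counts, 1309, lay on 1 of them. Usp47, which acts in DNA base excision repair, was at 72.5 to 98.2 CPM in domesticated (median 83.7) and 59.0 to 105 CPM in wild fish (median 65.2). Its confidence interval was -0.26 to 0.63. Usp2a, tied to the circadian clock in mice, has 8 listed transcripts and 143 counts in all libraries together (-0.80 ± 0.37, limma, adjusted p = 0.162). It reached the count threshold in 1 domesticated and 5 wild libraries.

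Other genes of the pathway were taken from lists, of which few members passed, beside 6.69% higher and 6.50% lower of all tested genes. Of 12 tested genes of the cullin-RING and SCF core 2 rose. Rnf7, a RING subunit of cullin ligases, was at 53.02 to 70.9 CPM in domesticated and 16.4 to 34.5 CPM in wild fish, with no overlap (log2 fold change 1.34, limma, adjusted p = 0.00397). Eloca, an adaptor of cullin 2 and cullin 5, was at 40.8 to 63.6 CPM in domesticated and 17.7 to 38.6 CPM in wild fish, again with no overlap (0.86, limma, adjusted p = 0.0241, and above 0.05 without W66 or W70). The list's median was 0.45, and skp1, which holds the F-box protein, had a value of 0.53 (limma, adjusted p = 0.0877, higher in 6 of 6 pairs).

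The list of deubiquitinases of other families also holds senp1 and senp7b, which are named as proteases of SUMO. Of its 14 tested genes uchl3 rose, at 19.8 to 31.0 CPM in domesticated and 7.61 to 22.0 CPM in wild fish, where W63 was above D53 (log2 fold change 1.03, limma, adjusted p = 0.0143). Zranb1a fell, at 29.5 to 40.1 CPM in domesticated and 37.6 to 92.0 CPM in wild fish (-0.74, limma, adjusted p = 0.0418, and 0.0624 with the replicate block). The list's median was -0.06. Of 14 fbxl and fbxw genes fbxl2 fell (-0.70, limma, adjusted p = 0.0481, 0.0720 with the replicate block) with a list median of -0.14. Of 13 muscle ubiquitin ligases nedd4a fell (-1.08, limma, adjusted p = 0.0265, 0.0672 with the replicate block), and the list's median was -0.62. Nedd4a has 3 listed transcripts and low values, 1.05 to 2.13 CPM in domesticated and 2.26 to 4.45 CPM in wild fish. An unadjusted limma p under 0.05 was found for 5 of the 13, all with negative log2 fold changes, beside 29.9% of all tested genes in either direction. In a list of 13 or 14 tested genes, 1 call in a direction is near the share over all tested genes (6.69% higher, 6.50% lower). Zranb1a passed in 2 of the 12 fits with 1 library left out, fbxl2 in 3 and nedd4a in 7. Of 3 tested E1 enzymes, 8 ubiquitin and ubiquitin-like precursors and 6 subunits of the COP9 signalosome 0 passed in each list, with 1, 2 and 1 at an unadjusted limma p under 0.05. Their medians were -0.14, 0.12 and 0.29.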

How the data were processed

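The authors deposited 1 table per library with whole-number read counts, not normalized, for 80392 transcripts and 5 summary lines. The submitters' processing notes name Trimmomatic 0.33, STAR, HTSeq and edgeR. For the deposited counts, no source used here gives the genome build, the counting settings or the other versions. The summary lines were left out. They held, on average, 51.5% of reads as not unique, 13.4% as ambiguous and 11.2% as without a feature. Counts were summed per GeneID, and symbols came from the RefSeq gene table of O_niloticus_UMD_NMBU (42607 of 42609 genes matched). No sequence was at hand.

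Genes with at least 10 scaled counts in at least 6 libraries and 15 counts in all were kept (8425). Log2 CPM (pseudocount 0.5, TMM-scaled totals, written out in R 4.3.3) was tested over all of them with limma 3.58.1 (trend, robust, condition as single term, Benjamini-Hochberg, threshold 0.05). No count model was fitted. On simulated counts of these 8425 genes, 100 genes were changed 2-fold and 100 were changed 4-fold. Limma recovered 15% of the former and 60% of the latter, with 1 false call among 76. The data gave 1112 calls, so the adjusted threshold was less strict there and these shares do not carry over.

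The labels tie fish of the same number genetically, so the numbers pair the libraries. The correlation of deviations from the group means was -0.101 to 0.209 within pairs (mean 0.0389, against -0.00667 between unpaired libraries). The study's methods give no differential test of these counts. Results and figures follow the unpaired fit that was planned, which leaves the pairing out, and the replicate block was an alternative. With the block 2 E2 genes were higher, 1 F-box gene was lower, and 1 deubiquitinase gene was higher and 5 were lower. Other alternatives were scaling factors, filters, the pseudocount, voom weights, thinning, genes with 1 transcript and each library left out. Within classes, genes past the test with a mean of at least 1 CPM and the 3 genes with the highest mean CPM were described, and others were named after their values were seen. The genes and lists were chosen with earlier results of these data known. Paralog ratios were compared with Python 3.11.15.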

Additional observations from a re-analysis of the deposited data

Results flagged for a closer look

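Values of the 22 genes named by rule were checked for libraries that stand apart within a group of 6, by the gap to the nearest library over the range of log2 CPM. Of 44 groups 7 had such a library, where chance gives about 1 in 20. Ube2d4 was 25.5 CPM in D53 (other domesticated libraries 67.1 to 95.6 CPM) and 62.1 CPM in W63 (other wild libraries 8.43 to 16.1 CPM). Ube2b was 6.43 CPM in W63 (other wild libraries 2.64 to 3.54 CPM). Fbxo30a was 236 CPM in D53 (others 14.1 to 37.7 CPM), and usp25 was 672 CPM in the same library (others 100.3 to 155 CPM). Otud1 was 18.9 CPM in W72 (other wild libraries 209 to 810 CPM). Nedd4a was 2.26 CPM in W53 (other wild libraries 3.47 to 4.45 CPM). Libraries D53 and W63 account for 5 of the 7.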

How the results depend on the processing

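With total counts in place of TMM factors E2 genes higher were 1 and lower 1 (ube2h), deubiquitinase genes higher 0 and lower 2, all genes higher 87, and the medians -0.060 for E2, -0.37 for F-box and -0.72 for deubiquitinase genes, shifted along with the median of all genes. Without a filter beyond 1 count deubiquitinase genes lower were 1 (otud7a) and all genes lower 352, with more genes in the adjustment. With voom weights deubiquitinase genes lower were 3. F-box genes higher were 1 with median-of-ratios scaling and 1 with a pseudocount of 2 (fbxo2 in both), and F-box genes lower were 1 with a filter of 30 counts (fbxo33) and 1 with the replicate block (fbxo30a). The replicate block called 1062 genes (911 of the 1112), lost ube2b and usp11 among the genes above and added fbxo30a and usp25. Of the pathway genes it lost zranb1a, fbxl2 and nedd4a. With single libraries left out, E2 genes higher were 1 to 4, F-box genes higher 0 to 2 and lower 0 to 1, deubiquitinase genes higher 1 and lower 2 to 6, and all genes higher 321 to 730 and lower 307 to 643. The low ends of 321 and 307 came without D70, and 730 came without W63 and 643 without D53. None of the 9 called genes changed direction. The causes were not tested. At 6 libraries a group 2-fold changes were mostly missed in simulated counts (15% recovered). The simulation changed 100 genes 2-fold and 100 genes 4-fold. It gave 76 calls, against 1112 in the data, so its adjusted threshold was stricter. The 54 genes also varied less within groups (median SD of log2 CPM 0.37 and 0.43) than all tested genes (0.52 and 0.59). The 15% therefore does not measure the power for these genes. Genes that were not called are still not shown to be unchanged, and genes with several transcripts could seldom be measured.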
